A study of Mus musculus with 8 samples.

Results

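The 35 genes described here are the hypoxia response and the glycolytic pathway of the embryonic mouse lung in culture. They were taken from a given list of gene names, and all 35 were found among the 24304 genes to which a spot of the deposited array table could be assigned. Where several spots named one gene, the spot with the highest mean over the 8 arrays stood for it, so that 109 spots gave the 35 values. The list holds 2 subunits of the hypoxia-inducible factor (HIF), 14 glycolytic enzymes, 5 genes of glucose and lactate transport or of flux control, and 14 feedback regulators and other targets of HIF.

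In the presence of oxygen, prolyl hydroxylases of the Egln family mark the alpha subunit of HIF for destruction, and when oxygen falls the stabilised subunit pairs with Arnt and switches on its targets. Glycolysis turns glucose into pyruvate and, through lactate dehydrogenase, into lactate, and most of its enzymes and its glucose transporter are HIF targets. Egln3 is itself a target, so the response restrains itself, and the embryonic lung grows in low oxygen in the uterus, where HIF drives vessel growth through Vegfa.

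The lungs were from C57bl/6J mouse embryos at E12.5 and were grown as whole explants on filters. Medium held 10 µM IQ1, a small molecule the study used against the interaction of β-catenin with EP300 and whose samples the labels describe as global FGFR2b inhibition, or vehicle. The labels name the vehicle as PBS, whereas the methods dissolve IQ1 in DMSO. After 9 h there were 3 IQ1 and 3 control samples, and after 24 h 1 IQ1 and 1 control sample, each of pooled lungs from another experiment, so between 9 h and 24 h time, experiment and pooling cannot be told apart. No genotype beyond the strain is given, all explants saw the same serum-containing medium, and the series design calls the samples biological replicates without saying which animals they came from. P-values measure the spread between these samples, which may be technical in part.

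All values are log2 intensities as deposited. The arrays had a common distribution (median 6.29, lower quartile 4.34 on each), and values of members near that quartile are dim. Of the 8 arrays, control replicate 2 at 9 h stood apart: its correlation with the other 7 arrays was 0.583 to 0.602, against 0.953 to 0.982 among those 7. Counts and medians of the members at 9 h are given both over the 5 arrays that leave it out and over all 6. Differences of single genes at 9 h leave it out unless stated, and some change sign when it is kept. Defining markers of lung epithelium and mesenchyme were present (Nkx2-1 at 10.35 to 11.42 and Tcf21 at 9.08 to 10.50 on the 7 arrays), as were erythroid genes (Hbb-y at 14.93 to 15.82 on the same arrays). Some markers of the same lists were dim on these arrays, such as epithelial Cdh1 at 4.07 to 6.08 and erythroid Epb42 at 2.91 to 4.45. Endothelial markers were lower with IQ1: all 10 were lower in the 5-array comparison and 9 with all 6 arrays, where Sox17 was higher. The Sox17 difference was −0.23 (SE 0.35) with 5 arrays and 0.35 with 6. At 9 h the mean of the markers lay at 5.76 to 6.14 on the IQ1 arrays. It lay at 7.97 and 7.84 on control replicates 1 and 3 and at 6.68 on control replicate 2. In such bulk samples fewer cells of a type and less RNA per cell cannot be told apart.

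The start regions of 4 members are shown, 1 or more from each group with HIF targets, because their differences at 9 h or over time are described below and HIF binds the core ACGTG or GCGTG. Each sequence runs 5′ to 3′ on the gene's strand, from 250 bases before to 50 bases after the start, from RefSeq on GRCm38.p6, and capitals mark ACGTG or GCGTG on either strand. The letters CACGTG hold ACGTG on both strands and are marked as 1 stretch. Ldha lies at chr7:46845554-46845853 (plus strand), P4ha2 at chr11:54100674-54100973 (plus strand), Slc2a1 at chr4:119108495-119108794 (plus strand) and Egln3 at chr12:54203825-54204124 (minus strand).
Ldha: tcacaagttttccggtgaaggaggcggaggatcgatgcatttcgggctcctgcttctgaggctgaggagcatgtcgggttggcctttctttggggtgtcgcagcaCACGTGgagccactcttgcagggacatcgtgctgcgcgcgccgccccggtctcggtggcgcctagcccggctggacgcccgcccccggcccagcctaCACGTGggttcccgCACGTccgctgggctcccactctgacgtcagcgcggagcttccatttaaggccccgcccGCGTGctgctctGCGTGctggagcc
P4ha2: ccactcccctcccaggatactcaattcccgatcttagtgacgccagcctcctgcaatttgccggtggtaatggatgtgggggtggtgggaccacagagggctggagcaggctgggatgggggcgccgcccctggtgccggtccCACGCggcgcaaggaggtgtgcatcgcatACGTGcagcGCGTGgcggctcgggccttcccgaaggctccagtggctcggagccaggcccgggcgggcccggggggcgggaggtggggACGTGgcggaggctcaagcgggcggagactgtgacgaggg
Slc2a1: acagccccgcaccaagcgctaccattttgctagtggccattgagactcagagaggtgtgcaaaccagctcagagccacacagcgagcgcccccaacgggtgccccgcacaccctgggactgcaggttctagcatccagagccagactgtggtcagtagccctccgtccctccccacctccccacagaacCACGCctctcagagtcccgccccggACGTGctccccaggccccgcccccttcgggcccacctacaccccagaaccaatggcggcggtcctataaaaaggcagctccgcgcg
Egln3: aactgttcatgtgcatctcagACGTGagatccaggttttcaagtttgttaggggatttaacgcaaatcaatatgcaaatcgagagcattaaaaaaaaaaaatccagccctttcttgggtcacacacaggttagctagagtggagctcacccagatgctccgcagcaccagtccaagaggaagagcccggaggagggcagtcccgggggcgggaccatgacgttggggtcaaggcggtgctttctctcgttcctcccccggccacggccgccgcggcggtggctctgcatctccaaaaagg

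Ldha had 5 marked stretches, P4ha2 had 4, Slc2a1 had 2 and Egln3 had 1. Of the 32 members with a RefSeq entry (Epas1, Ndrg1 and Bnip3l were the exceptions), 26 held at least 1 match in the first entry listed, against 43.8% of all 32851 start regions. The share was 9 of 14 for glycolytic enzymes, 5 of 5 for transport and flux control and 11 of 12 for feedback and other targets. Hk1, Gpi1, Aldoa, Tpi1, Pkm and Mxi1 had none in this window. CpG content was not matched in this comparison, and a match is a description of the letters only.

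The first comparison asks how IQ1 changed these genes after 9 h. Without control replicate 2, 28 of the 35 members were lower with IQ1, by a median of −0.28 on the log2 scale, while 48.4% of all genes were lower and their median was 0.01. These members were spread over every group: 12 of 14 glycolytic enzymes (median −0.31), 11 of 14 feedback and other targets (median −0.27), 3 of 5 transport and flux control genes (median −0.09) and both HIF subunits. No member passed an adjusted p of 0.05 in limma's moderated test over all genes, at which 0.0123% of genes passed, and the lowest adjusted p among members was 0.215. At an unadjusted p under 0.05, 6 members were lower, against 4.14% of all genes, and 0 were higher, against 4.24%. On 10 members all 3 IQ1 arrays lay below both control replicates, against 13.1% of genes, and on 1 member, Car9, they lay above both, also against 13.1%.

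These values depend on control replicate 2. With all 6 arrays, 15 of 35 members were lower and the median was 0.08, with 10400 of 24304 genes lower and a median of 0.16 over all genes. Genes brighter than the median gene had a median level of 8.05 on control replicate 2, against 9.15 and 9.14 on control replicates 1 and 3. Among these 12152 genes, which include most members, 3338 were lower in the 6-array fit and the median difference was 0.44. No gene passed in that fit (0% called), 1 member, Ankrd37, was lower at an unadjusted p under 0.05 (−1.84, adjusted p = 0.730), against 0.889% of genes, and on 4 members (Ldha, Ankrd37, P4ha1 and Pgam1) all IQ1 arrays lay below all 3 controls, against 5.25% of genes. By group the median there was −0.20 for glycolytic enzymes and 0.35 for feedback and other targets, of which 2 of 14 were lower. The latter median was near the 0.44 of the genes brighter than the median gene. Control replicate 2 lay at 10.78 in the mean of the glycolytic enzymes but at 6.65 in that of the feedback and other targets, where the other controls lay at 8.68 and 8.22. With each array centred on its bright genes instead, 24 of 35 members were lower in the 6-array fit, but so were 14727 of the 24304 genes.

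Both controls that remained also differed from each other. The mean over the 35 members was 9.85 on control replicate 1 and 9.47 on control replicate 3, against 9.45, 9.12 and 9.35 on IQ1 replicates 1 to 3. Control replicate 3 was thus barely above the highest IQ1 array. The same held for the mean of the glycolytic enzymes, at 11.40 and 11.08 in controls 1 and 3 and between 10.63 and 11.07 on the IQ1 arrays. The mean of the feedback and other targets overlapped, at 8.68 and 8.22 in controls and 8.29, 7.98 and 8.12 with IQ1.

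**Figure D1:**
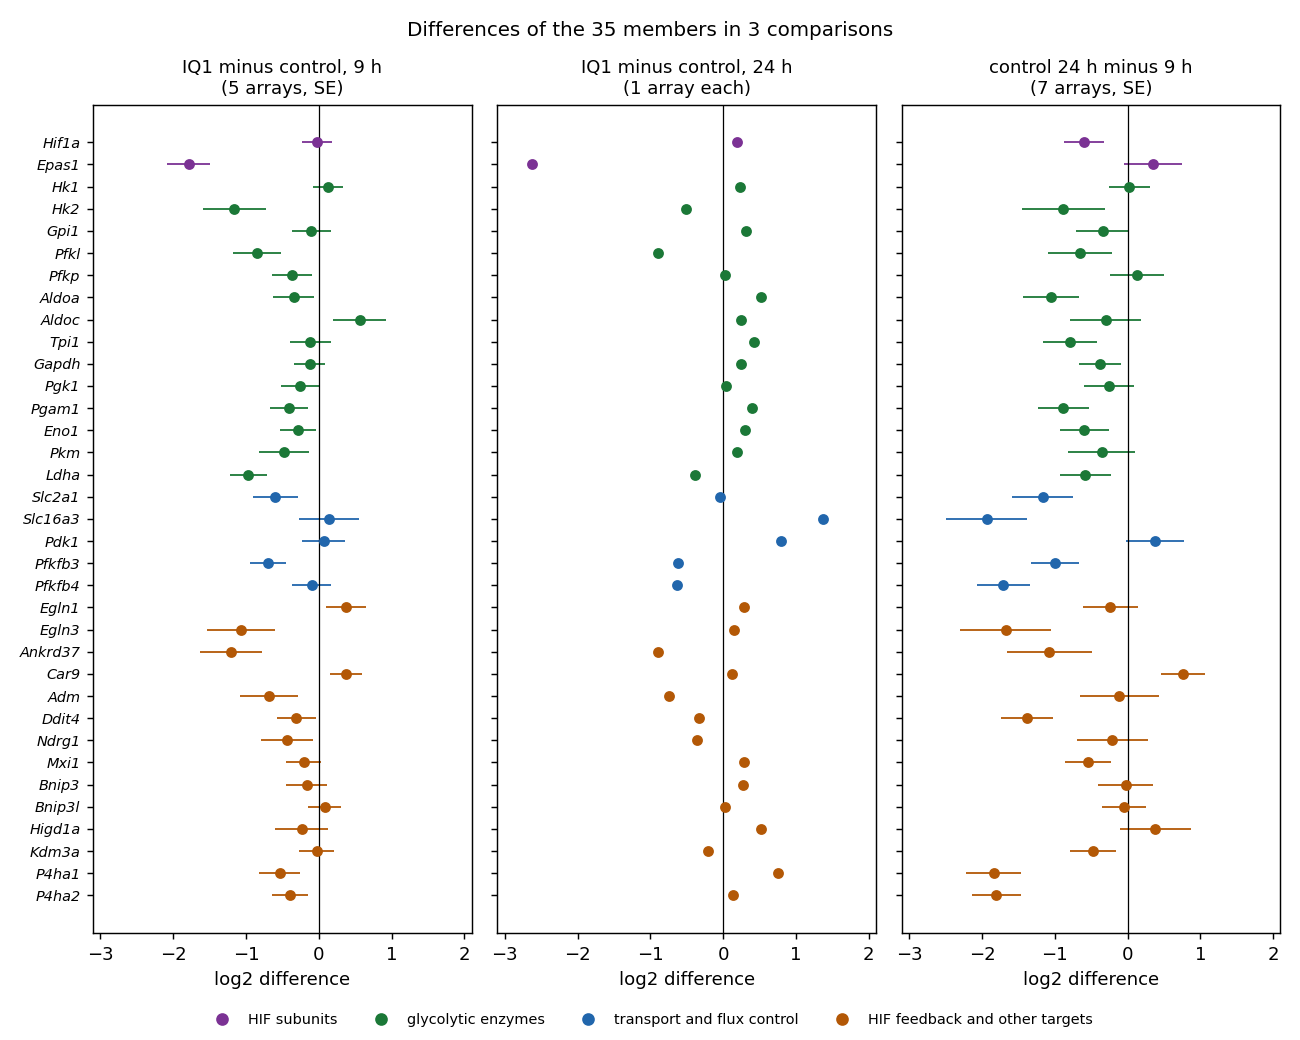
Log2 differences of the 35 members (rows, coloured by group) for IQ1 minus control at 9 h (without control replicate 2, bars are standard errors), IQ1 minus control at 24 h (1 array per group, no error) and control at 24 h minus control at 9 h (7 arrays, bars are standard errors). Most members lie left of 0 in the first and the last panel, with medians of −0.28 and −0.55, and 23 of 35 lie right of 0 in the middle one.

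Of the HIF subunits, Epas1, which encodes the alpha subunit best known from endothelium, had the largest difference of all members. It lay at 6.58, 5.82 and 6.28 on IQ1 replicates 1 to 3 and at 8.19 and 7.84 on control replicates 1 and 3, with 4.93 on control replicate 2. The first 2 control values were above every IQ1 array, and the third control value was below every one. Without control replicate 2 the difference was −1.79 (SE 0.30, adjusted p = 0.215 in limma's moderated test), a ratio of 0.29, and with it −0.76 (SE 0.91, adjusted p = 0.736). At 24 h Epas1 lay at 5.73 with IQ1 and at 8.36 in the control, a difference of −2.63, and it was the 1 member lower by more than 1 there, against 4.97% of genes.

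The Epas1 difference ran beside that of the endothelial markers. Their mean lay at 5.63 on the IQ1 array and 7.95 on the control array at 24 h. All 10 were lower at 24 h and, without control replicate 2, at 9 h. Cdh5, an endothelial adhesion gene, lay at 7.08, 6.75 and 7.65 with IQ1 and at 10.04, 8.07 and 9.58 in controls 1 to 3 at 9 h. For 6 of the 10 markers all IQ1 arrays lay below all 3 controls, against 5.25% of genes. For Kdr, Tek, Tie1 and Sox17 control replicate 2 lay below every IQ1 array, as for Epas1. The part of endothelial RNA in the Epas1 difference was not tested.

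**Figure D2:**
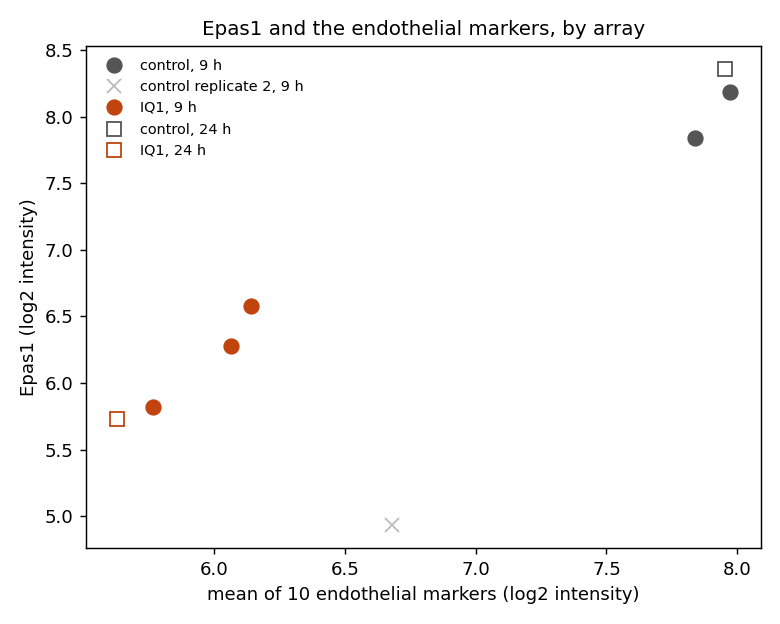
Level of Epas1 (vertical axis, log2 intensity) against the mean of 10 endothelial markers (horizontal axis, log2 intensity) on the 8 arrays, with circles for 9 h, squares for 24 h and a cross for control replicate 2. The 4 IQ1 arrays lie between 5.73 and 6.58 for Epas1, the other controls between 7.84 and 8.36, and the cross lies at 4.93.

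Hif1a, the subunit found in most cells, showed no such difference. It lay at 10.82, 10.81 and 10.93 on the IQ1 arrays at 9 h and at 10.89 and 10.87 on control replicates 1 and 3, with 8.41 on control replicate 2. The IQ1 arrays lay on both sides of these controls, and the difference was −0.03 (SE 0.21, adjusted p = 0.990). At 24 h it lay at 10.47 with IQ1 and 10.28 in the control. In all, 3 spots named Hif1a, and their differences at 9 h ran from −0.03 to 0.05.

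Among the glycolytic enzymes, Ldha, which makes lactate from pyruvate, and Pgam1 were those whose IQ1 arrays lay below the controls with and without control replicate 2. Ldha lay at 11.46, 11.29 and 11.50 on IQ1 replicates 1 to 3 and at 12.67, 12.06 and 12.10 on control replicates 1 to 3. No IQ1 array reached a control array. The difference was −0.97 (SE 0.26, adjusted p = 0.415) with 5 arrays and −0.86 with 6. The second Ldha spot differed by −0.92. At 24 h Ldha lay at 11.42 with IQ1 and 11.80 in the control, a difference of −0.38.

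Hk2, the inducible hexokinase that traps glucose in the cell, lay at 8.61, 7.20 and 8.16 with IQ1 and at 9.15, 7.51 and 9.15 in controls 1 to 3. Controls 1 and 3 agreed closely and lay above all IQ1 arrays, whereas control replicate 2 lay among them. The difference was −1.16 (SE 0.43, adjusted p = 0.555) without that array, and −0.50 at 24 h. Its constitutive relative Hk1 lay at 11.21, 11.36 and 11.28 with IQ1 and at 11.22 and 11.09 in controls 1 and 3, a difference of 0.13 (SE 0.21). The 5 Hk1 spots ran from −0.48 to 1.03 at 9 h, so they disagreed in sign.

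Pfkl, the liver-type phosphofructokinase at the committed step, lay at 8.73, 8.34 and 9.10 with IQ1 and at 9.89, 8.85 and 9.25 in controls 1 to 3 (difference −0.85, SE 0.33, adjusted p = 0.578, without control replicate 2). At 24 h the values were 8.02 with IQ1 and 8.92 in the control. The other 2 Pfkl spots, both dimmer, were higher with IQ1 at 9 h, by up to 0.20, so the spots of this gene disagreed.

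The remaining enzymes differed less. Pgk1, which makes the first ATP of the pathway, lay at 12.21, 11.85 and 12.11 with IQ1 and at 12.56, 11.71 and 12.07 in controls 1 to 3. These values overlapped (difference −0.26, SE 0.26, without control replicate 2). Between Hk1 and the lactate step, Gpi1, Pfkp, Aldoa, Tpi1, Gapdh, Pgam1, Eno1 and Pkm had differences of −0.47 (Pkm, the last ATP-making enzyme) to −0.10 (Gpi1), none of them at an unadjusted p under 0.05. Aldoc, the brain-type aldolase, was higher, by 0.56 (SE 0.36), and its 21 spots ran from 0.56 to 0.98. Transcripts of Gapdh, Pgam1, Tpi1, Eno1, Ldha, Pkm and Aldoa have processed copies or close relatives in the genome that a probe could also bind, so their values are uncertain in that respect.

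Of the genes that set glucose entry and flux, Pfkfb3, which makes the activator of phosphofructokinase, was lower. It lay at 10.76, 10.82 and 11.21 with IQ1 and at 11.76, 10.44 and 11.49 in controls 1 to 3. Without control replicate 2 the groups were apart by −0.70 (SE 0.25, adjusted p = 0.544), and both of its spots were lower, at −0.70 and −0.61. The glucose transporter Slc2a1 lay at 9.11, 8.40 and 8.83 with IQ1 and at 9.67, 7.64 and 9.08 in controls 1 to 3. Its groups overlapped, with a difference of −0.59 (SE 0.31) without control replicate 2 and −0.02 with it. Slc16a3, the lactate exporter, Pdk1, which keeps pyruvate out of the mitochondria, and Pfkfb4 had differences of 0.15, 0.07 and −0.09, each within 1 standard error.

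Among the feedback regulators, the pair of HIF hydroxylases pointed in opposite directions at 9 h only when control replicate 2 was left out. Egln3 lay at 6.38, 6.09 and 5.66 with IQ1 and at 7.83, 3.68 and 6.39 in controls 1 to 3 (−1.07, SE 0.47, adjusted p = 0.618, without control replicate 2). Control replicate 3 was barely above the highest IQ1 array, so most of this difference came from control replicate 1, and without that array it was −0.35. Egln1, the main oxygen sensor of most cells, lay at 7.41, 6.79 and 7.26 with IQ1 and at 6.96, 3.92 and 6.60 in controls (0.37, SE 0.28, adjusted p = 0.798). Its IQ1 replicate 2 lay below control replicate 1, so these values overlapped. With all 6 arrays Egln3 differed by 0.08 and Egln1 by 1.33. At 24 h, with 1 array per group, they differed by 0.16 and 0.28.

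Ankrd37, an ankyrin repeat gene induced by HIF, lay at 5.78, 5.39 and 6.34 with IQ1 and at 7.60, 8.96 and 6.49 in controls 1 to 3. All 3 IQ1 arrays lay below all 3 controls. The difference was −1.21 (SE 0.43, adjusted p = 0.547) with 5 arrays and −1.84 with 6, and −0.89 at 24 h (5.08 against 5.97).

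Adm, which encodes the vasodilator peptide adrenomedullin, lay at 7.08, 6.31 and 6.06 with IQ1 and at 7.58, 4.42 and 6.75 in controls, with overlap. Without control replicate 2 Adm differed by −0.68 (SE 0.40), and with all 6 arrays by 0.23. At 24 h it differed by −0.74. The other targets, namely Ddit4, Ndrg1, Mxi1, Bnip3, Bnip3l, Higd1a, Kdm3a, P4ha1 and P4ha2, had differences between −0.54 (P4ha1, a catalytic subunit of collagen prolyl hydroxylase) and 0.08 (Bnip3l, a mitophagy receptor). Car9, the membrane carbonic anhydrase often used as a hypoxia marker, was higher, at 8.51, 8.80 and 8.81 with IQ1 against 8.29, 6.15 and 8.37 in controls (0.38, SE 0.22, adjusted p = 0.721). Its second, dimmer spot differed by only 0.06.

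**Figure D3:**
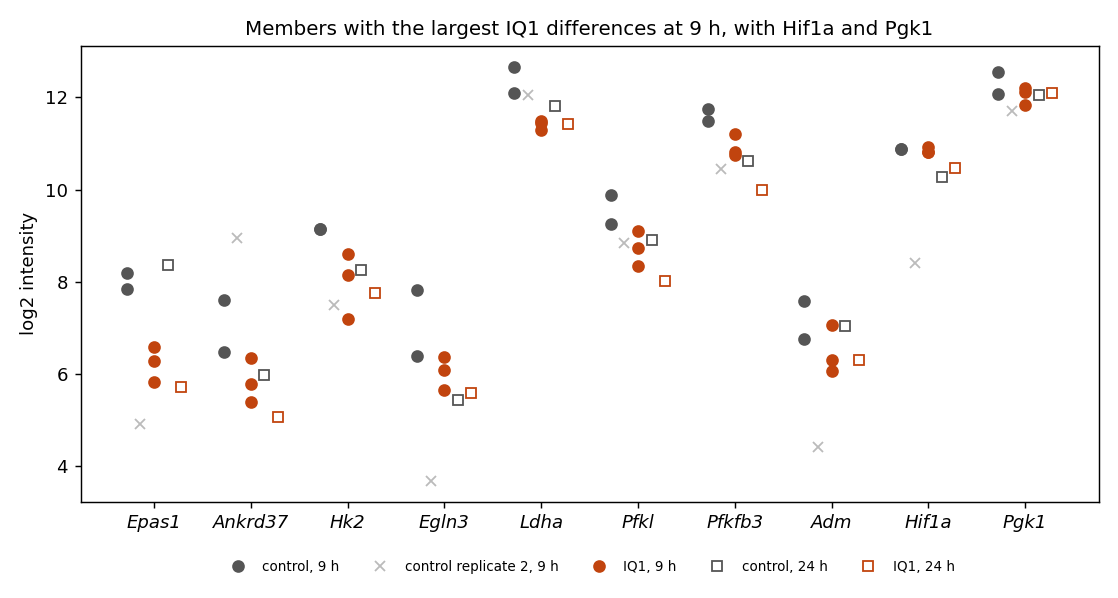
Log2 intensity (vertical axis) of the 8 members with the largest IQ1 differences at 9 h, and of Hif1a and Pgk1, on each of the 8 arrays (circles 9 h, squares 24 h, crosses control replicate 2 at 9 h, orange IQ1, grey control). For Ldha the 3 IQ1 circles (11.29 to 11.50) lie below all control marks, whereas for Hif1a they lie among the control circles near 10.9.

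The second comparison asks for the same difference after 24 h, where there was 1 array per group and no test was made. Here 12 of 35 members were lower, against 48.6% of all genes, and the median was 0.16 (0.02 over all genes). Of the glycolytic enzymes 11 of 14 were higher, with a median of 0.24, and of the feedback and other targets 9 of 14, with a median of 0.13. The 3 enzymes that were lower, Hk2, Pfkl and Ldha, were the 3 with the lowest differences at 9 h. Slc16a3 was the 1 member higher by more than 1, against 5.64% of genes, at 6.48 with IQ1 and 5.10 in the control. Its second, dimmer spot differed by −0.08.

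The enzymes that were higher at 24 h differed by small amounts. Aldoa, the main aldolase, lay at 13.16 with IQ1 and 12.65 in the control, Tpi1 at 11.20 and 10.78, and Pgam1 at 13.29 and 12.90. The spots of a gene give the size of the error within an array: 11 spots named Pgam1, all of 1 transcript, and their 24 h differences ran from 0.05 to 0.60. For Aldoc the 21 spots ran from −0.13 to 2.57. Of the 23 members with more than 1 spot, all spots had one sign in 15 at 24 h and in 13 at 9 h.

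Set beside each other, the IQ1 differences of several members had opposite signs at the 2 times. P4ha1 differed by −0.54 at 9 h and by 0.75 at 24 h, the widest such gap. Between 9 h and 24 h its level went from a mean of 8.02 to 7.47 with IQ1. In controls it went from 8.56, the mean of replicates 1 and 3, to 6.72. The difference between the times was tested as an interaction in the 7-array fit, a test chosen after seeing the data. P4ha1 had 1.29 (SE 0.52, unadjusted p = 0.0475 in limma's moderated test, adjusted p = 1.0), it was the 1 member under 0.05, and 0 genes passed over all genes, with 990 at an unadjusted p under 0.05. Its second spot differed by −0.77 at 9 h and by −0.23 at 24 h.

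The third comparison, control explants at 24 h against 9 h, had the member median farthest from 0 when control replicate 2 was left out. It rests on the single control array at 24 h, which is also the control of the 24 h comparison above, so a value that is low on that array lowers the one and raises the other. Without control replicate 2, 29 of 35 members were lower at 24 h, with a median of −0.55, against 49.6% of all genes and a median of 0.01. By group the median was −1.16 for transport and flux control (4 of 5 lower), −0.48 for glycolytic enzymes (12 of 14) and −0.36 for feedback and other targets (12 of 14). No member passed over all genes in limma's moderated test, at which 0.00823% of genes passed. The lowest adjusted p among members was 0.258. At an unadjusted p under 0.05, 10 members were lower, against 5.11% of genes, and 1 was higher (Car9), against 5.36%. Differences below −1 were found for 9 members, against 4.93% of genes.

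With control replicate 2 kept, 22 of 35 members were lower, against 43.9% of all genes, and the median was −0.33, against 0.15 over all genes. With the mean of all spots of each gene instead of the brightest, 17 of 35 members were lower, with a median of 0.01. Over all genes 11426 of 24304 were lower there, with a median of 0.06. With the brightest spots the median of the feedback and other targets was 0.41. Among the 12152 genes brighter than the median gene, 3698 were lower and the median was also 0.41. No gene passed in this 8-array fit (0% called). At an unadjusted p under 0.05, 2 members were lower in that fit, against 0.576% of all genes, namely Slc16a3 (−1.79, adjusted p = 0.925) and P4ha1 (−2.64, adjusted p = 0.925). Marker lists were also lower at 24 h without control replicate 2. The mesenchymal list was lower in 8 of 8 genes, with a mean of 10.06 on the 24 h control against 10.67 and 10.61 on control replicates 1 and 3. The erythroid list was lower in 7 of 8 (9.78 against 10.13 and 10.02) and the epithelial list in 5 of 8 (9.33 against 9.75 and 9.54), while the endothelial list was lower in 5 of 10 (7.95 against 7.97 and 7.84). Whether the makeup of the explants had a part in the differences below was not tested.

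Slc16a3, the lactate exporter, lay at 5.10 in the 24 h control and at 7.33, 6.62 and 6.75 in the 9 h controls. It was below each of them, by −1.94 (SE 0.55, adjusted p = 0.371) in the 7-array fit. Slc2a1 lay at 8.21 against 9.67, 7.64 and 9.08 (−1.16, SE 0.42, adjusted p = 0.451), below replicates 1 and 3 and above replicate 2. Pfkfb4, like Pfkfb3 a regulator of phosphofructokinase, lay at 5.48 against 7.33, 3.05 and 7.03 (−1.71, SE 0.36, adjusted p = 0.299), and its second spot, which is near the lower quartile of the arrays, differed by −0.39.

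The collagen prolyl hydroxylase subunits P4ha1 and P4ha2, HIF targets that act in the endoplasmic reticulum, were lower together. P4ha1 lay at 6.72 in the 24 h control and at 8.85, 10.95 and 8.27 in the 9 h controls 1 to 3. P4ha2 lay at 5.81 and at 7.71, 5.60 and 7.52. Both were below controls 1 and 3, by −1.84 (SE 0.38, adjusted p = 0.295) and −1.81 (SE 0.34, adjusted p = 0.258). The second spots differed by −0.69 for P4ha1 and by −1.96 for P4ha2, the latter a dim spot with a mean of 4.26, under the lower quartile. With IQ1, P4ha1 lay at 8.26, 8.04 and 7.76 at 9 h and at 7.47 at 24 h, and P4ha2 at 7.48, 7.21 and 6.96 and at 5.94.

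Egln3 lay at 5.44 in the 24 h control against 7.83, 3.68 and 6.39 (−1.68, SE 0.62, adjusted p = 0.457). Ddit4, an inhibitor of mTOR signalling induced by hypoxia and other stresses, lay at 9.34 against 10.99, 9.05 and 10.46 (−1.38, SE 0.36, adjusted p = 0.348). Ankrd37 lay at 5.97 against 7.60, 8.96 and 6.49 (−1.07, SE 0.58, adjusted p = 0.557), below all 3. On the arrays with IQ1 at 24 h these 3 genes lay at 5.59, 9.01 and 5.08, each below the 3 IQ1 arrays of 9 h.

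Not all targets were lower with time. Car9 lay at 9.09 in the 24 h control and at 8.29, 6.15 and 8.37 at 9 h (0.76, SE 0.30, adjusted p = 0.465), and both of its spots were higher, at 0.76 and 0.88. The mitochondrial targets Bnip3 (−0.03), Bnip3l (−0.05) and Higd1a (0.38) were each within 1 standard error. Among the enzymes, Aldoa (−1.06, SE 0.38) and Pgam1 (−0.88, SE 0.35) had the largest differences with Hk2 (−0.88, SE 0.57), and Hk1 (0.02) and Pfkp (0.13) the smallest. The 5 spots of Hk1 ran from −0.86 to 0.83 and the 5 of Pfkp from −0.33 to 0.65. Hif1a was different by −0.60 (SE 0.28, adjusted p = 0.515), and all 3 of its spots were lower.

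**Figure D4:**
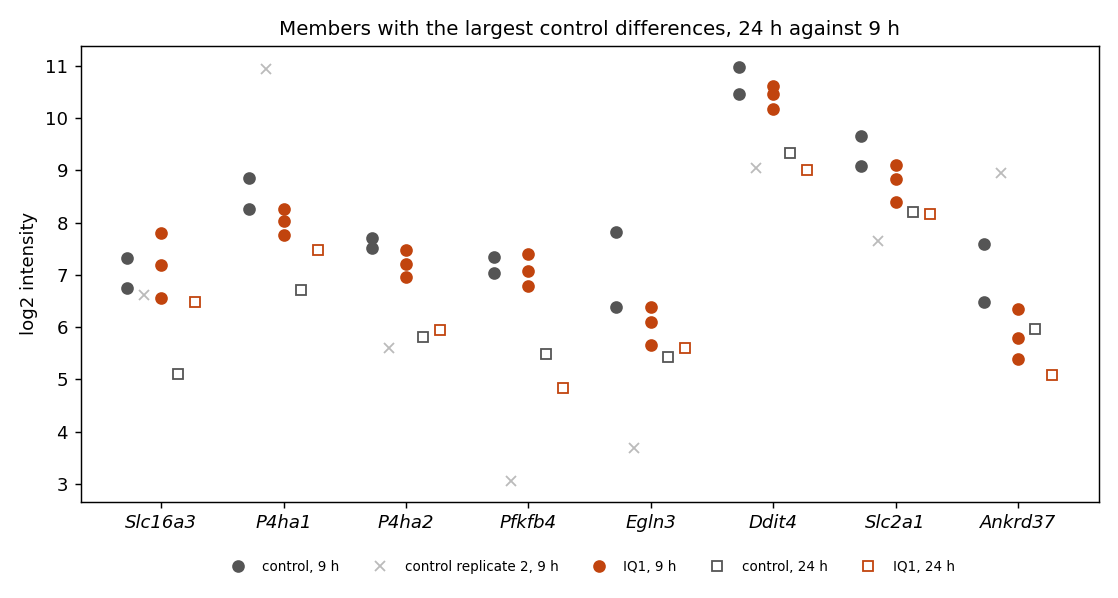
Log2 intensity (vertical axis) of the 8 members with the largest differences between control explants at 24 h and 9 h, on each of the 8 arrays (circles 9 h, squares 24 h, crosses control replicate 2 at 9 h, orange IQ1, grey control). The grey square lies below both grey circles in all 8 genes, for example at 5.10 for Slc16a3, where the circles lie at 7.33 and 6.75.

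Of 61 further genes of the pathway that were listed and found, 29 were lower with IQ1 at 9 h without control replicate 2 (median 0.04), with 4 lower (4.14% of all genes) and 4 higher (4.24% of all genes) at an unadjusted p under 0.05, and none passed over all genes in this fit. The HIF machinery itself (Arnt, Arnt2, Hif3a, Vhl, Hif1an, Egln2, Cited2) was lower in 1 of 7 genes, Egln2, and other glycolysis genes in 5 of 21. The other HIF targets were lower in 23 of 33. With all 6 arrays 22 of the 61 genes were lower (median 0.27), with 10400 of 24304 genes lower and a median of 0.16 over all genes. The 4 largest differences without control replicate 2 were those of Stc2, Cxcr4, Vegfa and Pdk2.

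Vegfa, the growth factor through which HIF calls in vessels, lay at 10.34, 10.54 and 10.68 with IQ1 and at 12.57, 12.03 and 12.26 in controls 1 to 3. No IQ1 array reached a control array, and the difference was −1.90 (SE 0.24, adjusted p = 0.131) with 5 arrays, −1.77 with 6 and −1.66 at 24 h. Cxcr4, a chemokine receptor of endothelium and blood cells, lay at 9.34, 9.25 and 9.66 against 11.59, 10.58 and 11.46 (−2.11, SE 0.23, adjusted p = 0.104), and at 9.49 against 11.50 at 24 h. Stc2, a secreted glycoprotein, differed by −2.16 (SE 0.54, adjusted p = 0.379), with its 3 IQ1 values, 5.01, 3.74 and 3.14, below the control values of 6.17, 9.64 and 6.07. The last 2 of its IQ1 values lie under the lower quartile of the arrays, so the size of this difference is uncertain. Pdk2, a pyruvate dehydrogenase kinase, was higher by 1.14 (SE 0.29, adjusted p = 0.388), although control replicate 2, at 9.96, was above the IQ1 arrays.

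With time in control explants, 40 of these 61 genes were lower without control replicate 2 (median −0.26), against 49.6% of all genes. At an unadjusted p under 0.05, 9 were lower and 3 higher, against 5.11% and 5.36% of all genes. With control replicate 2 kept, 28 of the 61 were lower (median 0.29), against 43.9% of all genes (median 0.15). The largest differences without it were those of Ppp1r3c, Gpd1, Tfrc and Bhlhe40. Ppp1r3c, which directs glycogen synthesis, lay at 9.64 in the 24 h control and at 7.92, 4.09 and 7.73 in the 9 h controls (1.82, SE 0.29, adjusted p = 0.194), while the IQ1 array at 24 h lay at 7.39. Gpd1, which links glycolysis to glycerol lipids, was higher by 1.66 (SE 0.34, adjusted p = 0.295). The transferrin receptor Tfrc differed by −1.47 (SE 0.28, adjusted p = 0.262), and Bhlhe40, a transcription factor of the clock and hypoxia responses, by −1.27 (SE 0.59, adjusted p = 0.517).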

How the data were processed

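The deposited table holds 1 log2 value per spot and array, made by the authors from Agilent 1-colour scans of amplified cDNA labelled with Cy5. Limma is the tool named in the submitters' processing notes, and the equal medians and quartiles of the arrays show a between-array normalisation, which forces all arrays to 1 distribution and hides any change common to most genes. No spot flags of background or saturation were used here, and the number of arrays limits the precision.

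Of 62976 spots, 43941 carried 1 gene name, by accession (33708), symbol (9763), synonym (463) or as listed (7), which gave 24304 genes. The platform annotation was read with RefSeq names. The brightest spot stood for each gene. The two-sided moderated test of limma (version 3.58.1, R version 4.3.3; functions lmFit and eBayes) was run per gene, p-values received the Benjamini-Hochberg adjustment across the 24304 genes, and the threshold was 0.05. Comparisons at 9 h used the 9 h arrays. Control at 24 h against 9 h came from a fit of 4 groups, in which the single arrays are assumed to vary like the others. At 24 h no test was made, and a difference past 1 counted as called. The fits were run on simulated arrays with known changes. Their noise had the spread of the 7 arrays without control replicate 2, so they could not test how that array affects the fits that keep it.

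The members and lists were chosen with earlier results of these data known. Named with their arrays were Hif1a, Epas1, Egln1, Egln3, Slc2a1, Pgk1 and Ldha, the 8 members with the largest 9 h difference, the 8 with the largest difference over time, and the 4 other pathway genes with the largest difference in each of these contrasts. Array values of Car9, Hk1 and Cdh5, and the 24 h values of Aldoa, Tpi1 and Pgam1, were chosen after their values were seen. Alternatives were leaving out each 9 h array, a replicate block, dim genes left out, an intensity trend with a robust prior, array weights, a fit of 4 groups, the mean of all spots and centring on genes above the median gene.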

Additional observations from a re-analysis of the deposited data

Results flagged for a closer look

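For 9 of the 35 members every IQ1 array at 9 h lay on the same side of the mean of control replicates 1 and 3 while the single IQ1 array at 24 h lay on the other side of its control. This was so for 3678 of all 24304 genes. The IQ1 difference at 24 h exceeded that at 9 h by 1.29 for P4ha1, 1.22 for Egln3, 0.86 for Aldoa, 0.80 for Pgam1, 0.67 for Pkm, 0.59 for Eno1, 0.53 for P4ha2, 0.45 for Bnip3 and 0.29 for Pgk1. In the 7-array fit the control difference between 24 h and 9 h was below 0 for all 9, from −1.84 for P4ha1 to −0.03 for Bnip3. These are values of the brightest spots. At 24 h only 1 of 4 Pkm spots was higher with IQ1, and the lowest was at −0.89. The lowest Eno1 and P4ha1 spots were at −0.40 and −0.23 there. For Pgk1 the second spot differed by 0.00 at 9 h and by 0.32 at 24 h. All 11 Pgam1 spots and both P4ha2 spots were lower at 9 h and higher at 24 h. In the interaction test of limma's 7-array fit each of the 9 had an adjusted p of 1.0, and the cause was not tested.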

How the results depend on the processing

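No member passed the threshold over all genes at 9 h or over time under the settings run, with these exceptions: Epas1 passed at 9 h with array weights over 6 arrays and with a trend and robust prior over 5, and P4ha2 passed over time with array weights over 8. Of the other pathway genes, Vegfa and Cxcr4 passed at 9 h over 5 arrays with dim genes left out and with the trend and robust prior, Cxcr4 with array weights over 5, and Vegfa, Stc2 and Cxcr4 with array weights over 6. Over time with 7 arrays, Ppp1r3c passed with dim genes left out, and Ppp1r3c and Tfrc with the trend and robust prior. The number of genes called was less stable. At 9 h with 6 arrays it was 0, 233 with array weights, and 0 to 3 when 1 array was left out. With 5 arrays it was 3, but 31 with dim genes left out, 139 with a trend and robust prior, 34 with array weights, 9 with the mean of all spots, and 0 with each further array left out. Over time it was 0 with 8 arrays, 138 with array weights and 0 to 2 with 1 array left out. With 7 arrays it was 2, then 41 with dim genes left out, 99 with a trend and robust prior, 10 with array weights, 1 with the mean of all spots and 0 with each further array left out.

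The member median at 9 h was −0.28 with 5 arrays and ran from −0.49 (without control replicate 3) to −0.15 (without control replicate 1) with 1 array left out, but from −0.28 to 0.46 with 6 arrays. Over time it ran from −0.61 to −0.38 with 7 arrays and from −0.55 to 0.09 with 8. With the mean of all spots the member median over time was −0.38 with 7 arrays and 0.01 with 8. Centring on bright genes moved the median of all genes from 0.16 to −0.23 in the 6-array fit, with the member median at −0.31, and from 0.15 to −0.20 over time with 8 arrays, with the member median at −0.67. The named members other than Hif1a kept their sign under every setting run for them in the 5-array and 7-array fits. These settings were leaving out arrays, the block at 9 h, the mean of all spots and centring. All of them lacked control replicate 2, and with it kept at 9 h Egln3 and Adm changed sign, to 0.08 and 0.23. Leaving out an IQ1 array cannot change a difference between controls, so over time those settings could not move a sign. Hif1a at 9 h was not followed across settings, since its difference is within 1 standard error. In the 5-array fit at 9 h, Egln3 and Ankrd37 differed by −0.35 and −0.65 without control replicate 1 and by −1.78 and −1.76 without control replicate 3.

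Deviations of same-numbered arrays from their group means had correlations of 0.004, −0.004 and 0.02. The control mean included control replicate 2, which stood apart, so these values cannot show whether the numbers pair the samples. With the replicate block 0 genes were called in both 9 h fits, and the member median was −0.15 with 5 arrays and 0.08 with 6. Leaving out arrays over time, and the mean of spots and centring for its counts, were chosen after seeing the data.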
